A study of Homo sapiens with 8 samples.

Results

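Small nucleolar RNA (snoRNA) genes were followed in U-CH1 and MUG-Chor1, 2 established human chordoma lines, grown with or without tumour necrosis factor alpha (TNF). The members were all genes whose symbol in the platform annotation begins with SNORA or SNORD, that had a probe set with exactly 1 gene symbol, and that were selected on their measured level: at least 1 array had to exceed 2.57, the median over the whole deposited table. Of 218 snoRNA genes with such a probe set, 160 met the rule, 57 of 61 SNORA genes and 103 of 157 SNORD genes. They were 160 of 16986 genes tested in the series. Because the rule used the measured values, a gene above the median on the arrays of 1 line alone had to differ between lines. This held for 27 members seen on U-CH1 arrays only and 6 seen on MUG-Chor1 arrays only. The members nearest to the median from above were SNORD114-10, with a highest value of 2.67, and SNORD126, with 2.84. The nearest genes left out were SNORA70C, with 2.48, and SNORD116-23, with 2.47.

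SnoRNAs are short nuclear RNAs, most of which are cut out of the introns of host genes. Box H/ACA snoRNAs (SNORA symbols) pair with ribosomal RNA and guide its pseudouridylation with the proteins DKC1, NHP2, NOP10 and GAR1. Box C/D snoRNAs (SNORD symbols) guide ribose methylation with FBL, NOP56, NOP58 and SNU13, and a few, such as U3, U13 and U14, act in cutting the ribosomal RNA precursor. Large C/D families without known ribosomal RNA targets lie in imprinted regions, where only the copy from 1 parent is transcribed.

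Both lines were derived from chordoma, a bone tumour with features of the embryonic notochord. The groups were 3 untreated U-CH1 arrays, 3 untreated MUG-Chor1 arrays, 1 U-CH1 array with TNF and 1 MUG-Chor1 array with TNF. TNF was the human recombinant protein at 10 ng/mL, given in 3 additions a week for 1 week. Culture was as a monolayer on gelatin-coated plastic, in medium with serum and antibiotics. The labels do not say whether control arrays came from separate cultures, and p-values therefore refer to the spread among these arrays alone, which may be technical. Each TNF difference rests on 1 array, was not replicated, and was tested on the assumption that such an array varies as the controls do.

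The values are deposited RMA values on an assumed log2 scale. Each array's median over all probe sets lay between 2.52 and 2.63. There was no detection call, and precision is limited by the small number of arrays. The notochord factor TBXT was at 9.14 to 9.75 on the 6 controls, at 8.8 on the U-CH1 TNF array and at 7.51 on the MUG-Chor1 TNF array. TNFAIP3, a standard TNF target, was at 4.65 to 5.58 on the controls and at 8.44 and 8.03 on the TNF arrays. Differences were tested with limma over all 16986 genes with Benjamini-Hochberg adjustment, and a gene was called at an adjusted p under 0.05. In bulk RNA, fewer cells of a kind and less RNA per cell cannot be told apart.

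Of the 160 members, 103 exceeded the median on all 8 arrays, 49 of them H/ACA and 54 C/D genes. Among H/ACA genes the highest mean values over the 6 controls belonged to SNORA23, SNORA68, SNORA49 and SNORA33. SNORA23 read 10.49, 10.16 and 9.88 in U-CH1 controls and 10.48, 10.62 and 10.31 in MUG-Chor1 controls. Among C/D genes they were SNORD13, which is U13, then SNORD105B, SNORD46 and SNORD41. SNORD13 read 11.64, 11.31 and 11.42 in U-CH1 controls and 11.44, 11.55 and 11.13 in MUG-Chor1 controls. The 2 lines overlapped for both genes. Levels of different probe sets depend on probe design and give no order of RNA amount.

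**Figure D1:**
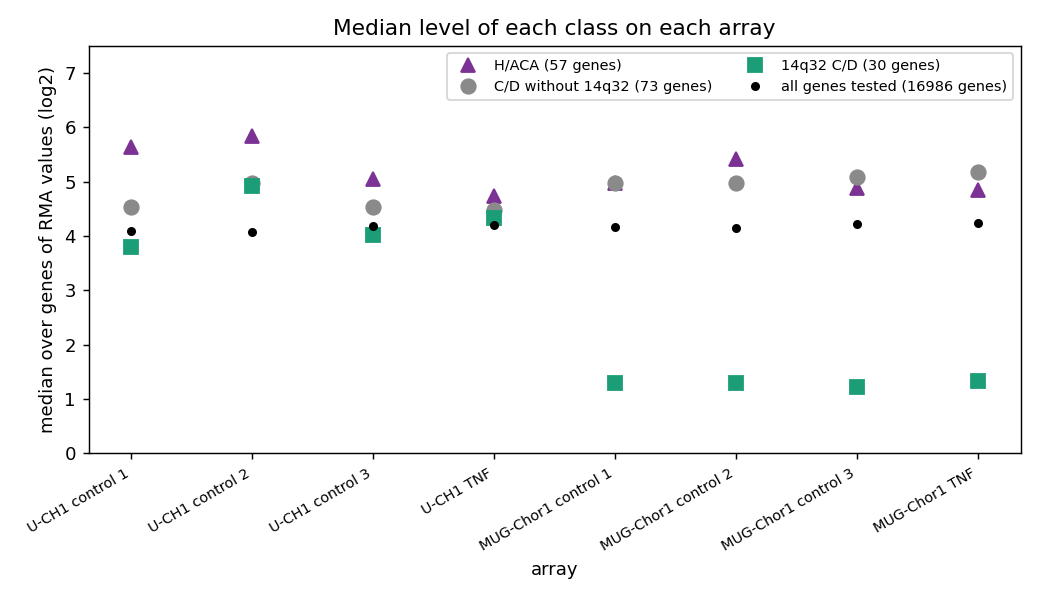
Median RMA value (log2, y axis) over the genes of each class on each of the 8 arrays (x axis), with no error bars. The SNORD113 and SNORD114 genes (14q32 C/D) sit at 3.80 to 4.91 on the U-CH1 controls and at 1.22 to 1.3 on the MUG-Chor1 controls. The H/ACA median is 4.73 on the U-CH1 TNF array, against 5.05 to 5.85 on its controls. On the MUG-Chor1 TNF array it is 4.85, just below its controls at 4.88 to 5.42.

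The largest snoRNA difference between the untreated lines was in the C/D genes SNORD113 and SNORD114, repeated families in the imprinted DLK1-DIO3 region of chromosome 14. In RefSeq they lie inside MEG8, a long noncoding RNA gene of the same imprinted region as MEG3. The MEG3 start window is shown because MEG3 is the first of these transcripts and differed in the same direction as the snoRNAs. It is the first of 3 RefSeq windows for the gene (GRCh38.p14, chr14:100825858-100826157, plus strand, 250 bases before to 50 bases after the transcript start). Capitals mark TGACGTCA, the cyclic AMP response element, and TATAAA, a core promoter element.

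MEG3: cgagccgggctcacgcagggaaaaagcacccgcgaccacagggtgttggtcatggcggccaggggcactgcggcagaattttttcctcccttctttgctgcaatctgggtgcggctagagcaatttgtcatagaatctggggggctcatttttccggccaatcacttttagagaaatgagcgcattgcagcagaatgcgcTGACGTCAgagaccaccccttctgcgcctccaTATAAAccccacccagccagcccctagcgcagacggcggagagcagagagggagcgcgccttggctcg

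Searched on both strands, TGACGTCA was found in 1.85% and TATAAA in 11.5% of 35116 RefSeq promoter windows of the same length. The 2 motifs do not overlap, and a match is a description of the letters and not of binding.

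SNORD114-1 read 8.02, 8.71 and 7.52 in the U-CH1 controls and 2.53, 1.83 and 1.67 in the MUG-Chor1 controls. It was 67.3-fold lower in MUG-Chor1 (log2 difference -6.07, SE 0.32, limma adjusted p = 1.41e-06). SNORD114-3 read 6.75, 7.84 and 6.64 against 1.38, 0.82 and 0.92, a 65.7-fold difference (log2 -6.04, SE 0.31). In both genes every U-CH1 array was far above every MUG-Chor1 array. SNORD114-17 had a log2 difference of -4.66 and was called, SNORD114-28 had -4.89, SNORD114-12 -4.86, SNORD114-21 -4.09, SNORD114-9 -3.86 and SNORD114-25 -3.56. Apart from SNORD114-1 and SNORD114-17, the genes named here passed the filter through U-CH1 arrays alone and so had to differ, and their values are given with no test. Near the lower end of the values, folds depend on the background of each probe set and may be understated.

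Of the 40 measured genes of the 2 families, 9 SNORD113 and 31 SNORD114, 30 passed the filter and 10 did not. Of those 30, 26 passed through U-CH1 arrays alone, so the count of 29 called lower in MUG-Chor1 is given as a description. The background was 8.57% of all genes called lower in MUG-Chor1, 10.3% called higher and 18.9% called in either direction. In the fit with no filter, where all 40 enter, 29 were called lower and 0 higher, against 6.35% of all 22395 genes called lower. All 40 had a negative difference, with a median log2 difference of -2.08. The 29 called genes ranged from -1.09 to -6.07, and 28 of them had a mean below the median of all values in MUG-Chor1 controls.

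SNORD114-27 stood apart from its neighbours. It read 5.22, 4.75 and 5.23 in U-CH1 controls and 4.79, 5.0 and 4.88 in MUG-Chor1 controls, so the groups overlapped (log2 difference -0.18, SE 0.20, limma adjusted p = 0.60). It was the one gene of the 30 tested that was not called, and it was chosen for mention after its values were seen. SNORD114 genes are repeats of similar sequence, and the sharing of probes between them was not tested.

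**Figure D2:**
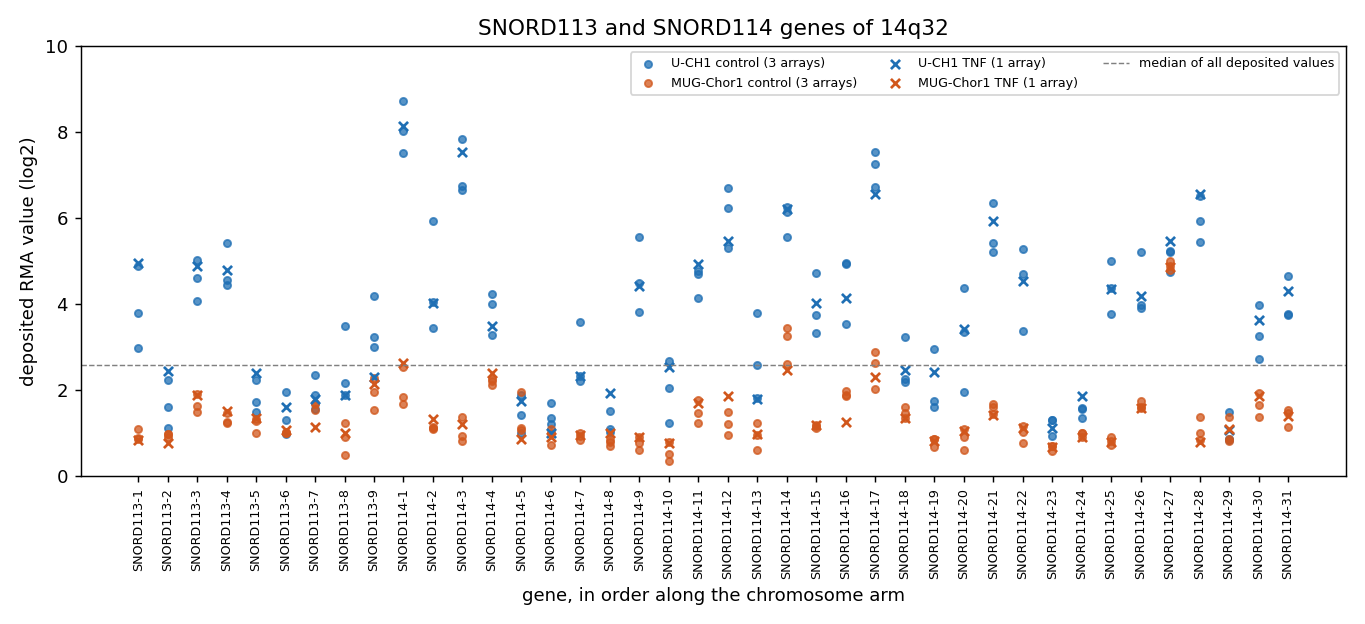
Deposited RMA values (log2, y axis) of the 40 SNORD113 and SNORD114 genes in order along the chromosome (x axis), with circles for single control arrays, crosses for single TNF arrays and a dashed line at the median of all values. U-CH1 points (blue) rise to 8.71 at SNORD114-1, while MUG-Chor1 points (orange) are highest at SNORD114-27, with single arrays of SNORD114-14 at 3.44 and SNORD114-17 at 2.88 also above the dashed line.

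Other transcripts of the region were measured beside them. MEG3 read 6.22, 5.62 and 5.20 in U-CH1 controls and 1.68, 1.86 and 1.83 in MUG-Chor1 controls (log2 difference -3.89, SE 0.25). MEG8, the host, read 3.79, 4.35 and 3.66 against 2.47, 2.10 and 2.17 (log2 -1.69, SE 0.23). DIO3, a thyroid hormone deiodinase gene at the far end, differed by -2.84 (SE 0.23). MEG3, MEG8 and DIO3 passed the filter through U-CH1 arrays alone and so had to differ, and their values are given with no test. DLK1, at the near end, also passed through U-CH1 arrays alone, but its control groups overlapped (log2 difference -0.29, SE 0.24, limma adjusted p = 0.48). Of 51 microRNA hairpin genes measured between DLK1 and DIO3, 20 were tested and 3 were called, all lower in MUG-Chor1. Over all genes 18.9% were called in either direction and 8.57% were called lower, so this count is near the background. Of the called microRNA genes, MIR1185-2 and MIR323B passed through U-CH1 arrays alone and had to differ, and MIR382 did not. The log2 differences over the 20 ran from -1.11 to 0.23. Hairpin probe sets do not measure the mature microRNA.

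No gene of the cluster was called with TNF. Among the 30 genes tested, 0 were called with limma in either line, with 1 and 0 at an unadjusted p under 0.05. The log2 differences ran from -1.16 to 1.08 in U-CH1 (median 0.06) and from -0.66 to 0.65 in MUG-Chor1 (median 0.08).

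The other imprinted C/D families, SNORD115 and SNORD116, lie in the Prader-Willi region inside SNHG14. All 25 measured SNORD115 genes, a family known from brain, stayed below the median on every array, between 0.33 and 1.52. Of 18 measured SNORD116 genes, 10 passed. SNORD116-15 read 8.58, 8.05 and 8.51 in U-CH1 controls and 8.76, 8.97 and 8.8 in MUG-Chor1 controls. SNORD116-24 read 8.53, 8.31 and 8.28 against 8.34, 8.57 and 8.65. The groups overlapped for SNORD116-24, and every MUG-Chor1 control was above every U-CH1 control for SNORD116-15. With limma 0 of the 10 were called between lines, 3 had an unadjusted p under 0.05, and their log2 differences ran from -0.46 to 0.72.

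Outside the chromosome 14 cluster, 28 of 130 members were called between the lines, or 21.5%, close to the background of 18.9% over all genes. The 73 C/D genes among them split 13 higher and 2 lower in MUG-Chor1, with a median log2 difference of 0.39 against -0.04 over all genes tested. Over all genes the split was 1754 higher and 1455 lower. The 2 lower genes were SNORD123 (-1.10) and SNORD117 (-0.99). The calls outside the cluster include SNORA31, SNORD72 and SNORD99, which passed through MUG-Chor1 arrays alone and had to differ.

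SNORD111 led the higher C/D genes, at 2.68, 3.54 and 2.94 in U-CH1 and 4.67, 5.72 and 5.02 in MUG-Chor1 controls (log2 difference 2.08, SE 0.30, limma adjusted p = 0.000963). SNORD60 read 5.02, 4.54 and 5.13 against 6.65, 7.09 and 7.05 (2.04, SE 0.22, limma adjusted p = 0.000174). The 2 lines did not overlap for either gene, which also held for 36.3% of all genes tested. SNORD58C and SNORD58A, both from RPL17, a ribosomal protein gene, were higher by 1.44 and 1.42. SNORD12 and SNORD12B, both from the noncoding host ZFAS1, were higher by 1.37 and 1.22, and SNORD35B by 1.34. SNORD78, from the noncoding host GAS5, was higher by 1.26, whereas SNORD75 of the same host had -0.15 (limma adjusted p = 0.80). With 1 array left out, SNORD78 kept its call in 6 of 8 fits (lost without MUG-Chor1 control 1 or 2). SNORD35B kept it in 4 (lost without U-CH1 control 1 or 3 or MUG-Chor1 control 2 or 3), and SNORD12B in 4 (lost without any U-CH1 control or MUG-Chor1 control 2). The other 5 genes of this paragraph that were called kept theirs in all 8.

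The 4 measured genes of the processing snoRNAs were SNORD3C (a U3 gene), SNORD13, SNORD14A and SNORD14E (U14 genes). Of these, 1 was called higher in MUG-Chor1. SNORD14A read 4.89, 5.50 and 5.10 in U-CH1 controls and 5.70, 6.22 and 6.71 in MUG-Chor1 controls (log2 difference 1.05, SE 0.27, limma adjusted p = 0.0229), with no overlap of the lines.

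Of the 57 H/ACA genes, 13 were called between lines, 7 higher and 6 lower in MUG-Chor1. This share of 22.8% is near the 18.9% of all genes called, 10.3% higher and 8.57% lower. The median log2 difference of all 57 was -0.20, and it ranged from -0.41 to -0.05 with 1 array left out. SNORA47 read 6.70, 6.71 and 7.19 in U-CH1 controls and 8.97, 8.97 and 8.8 in MUG-Chor1 controls (log2 difference 2.05, SE 0.20, limma adjusted p = 8.51e-05). SNORA70F read 2.63, 2.79 and 2.67 against 4.30, 4.32 and 4.51 (1.68, SE 0.18, limma adjusted p = 0.00015). The lines did not overlap for these 2 genes, as for 33.3% of the H/ACA genes and 36.3% of all genes tested. SNORA31 had 1.5, given with no test because it passed through MUG-Chor1 arrays alone. SNORA57 was higher by 1.27, SNORA3B by 1.14, SNORA12 by 0.98 and SNORA65 by 0.84.

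Lower in MUG-Chor1 was SNORA71D, at 8.28, 9.22 and 7.28 against 7.10, 6.85 and 6.28 (log2 difference -1.52, SE 0.41, limma adjusted p = 0.0279). SNORA38B read 5.72, 6.75 and 6.23 against 4.96, 4.57 and 4.8 (-1.46, SE 0.26, limma adjusted p = 0.0034). In both genes the lowest U-CH1 array was above the highest MUG-Chor1 array. SNORA13 was lower by -1.25 on the log2 scale, SNORA38 by -1.23, SNORA14B by -1.07 and SNORA77 by -1.04. The count of 13 became 8 without U-CH1 control 1 and 20 without U-CH1 control 3. A fit without the shrinkage of variances called 2. Over all genes these fits called 13.6%, 15.6% and 6.68%, in that order, against 18.9% with all arrays and shrinkage. With 1 array left out, SNORA65 kept its call in 3 of 8 fits (lost without U-CH1 control 1 or 2 or any MUG-Chor1 control) and SNORA71D in 4 (lost without U-CH1 control 1 or 2 or MUG-Chor1 control 2 or 3). SNORA57 kept it in 5 (lost without U-CH1 control 1 or 3 or MUG-Chor1 control 2), SNORA38 in 5 (lost without U-CH1 control 1 or 2 or MUG-Chor1 control 1) and SNORA14B in 5 (lost without U-CH1 control 1 or 2 or MUG-Chor1 control 2). SNORA3B and SNORA13 kept theirs in 7, losing them without U-CH1 control 1. SNORA47, SNORA70F, SNORA12, SNORA38B and SNORA77 kept theirs in all 8.

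A host gene was tested for 109 members, counting a gene as host where RefSeq gave 1 gene spanning the snoRNA, without regard to strand, or where a written list named it. The 30 members in MEG8 share that host and were set aside. Over the other 79 pairs, with 64 hosts, the line differences of snoRNA and host had Pearson r 0.64 and Spearman rho 0.67 across genes, which share arrays and hosts and are not independent replicates. Of 17 called snoRNA genes among them, 13 had a host that was called too, all in the same direction, against 18.9% of all genes called. The 13 include SNORA31, SNORD72 and SNORD99, which passed through MUG-Chor1 arrays alone and had to differ, so the count is a description. In 8 pairs the host was called and the snoRNA gene was not, and in 60 of the 79 pairs the 2 differences had the same sign. The pairs with both called included SNORA47 with ZBED3 (0.93), SNORA70F with COBLL1 (0.66), SNORD60 with SNHG19 (1.22), SNORD12 with ZFAS1 (0.81) and SNORD78 with GAS5 (1.02). In 4 cases the host was not called: SNORA38B with NOL11, SNORA77 with ATP2B4, SNORD111 with SF3B3 and SNORD9 with CHD8. On these arrays a probe set of a host can lie in exons only, and a share of signal from unspliced host RNA in a snoRNA probe set was not tested.

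**Figure D3:**
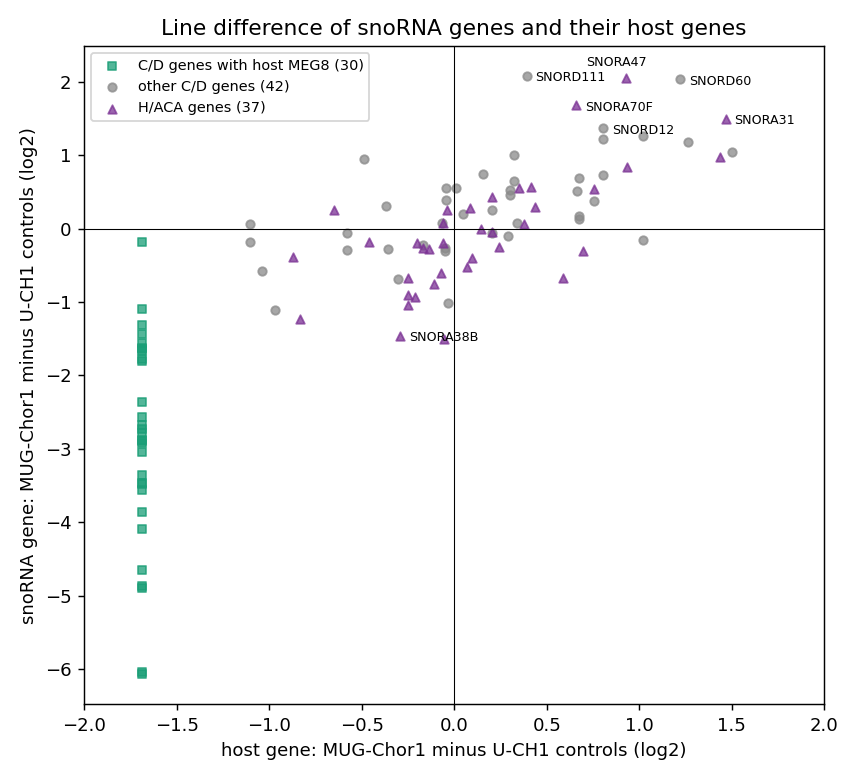
Log2 difference between untreated MUG-Chor1 and U-CH1 for each host gene (x axis) and its snoRNA gene (y axis), 109 pairs. The 30 genes in MEG8 (squares) share 1 host value of -1.69 and reach -6.07, and SNORA47, SNORD60 and SNORA31 lie at the upper right. SNORA31 passed the filter through MUG-Chor1 arrays alone and had to differ.

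None of the core snoRNP proteins measured was called between lines. With limma 0 of the 3 measured C/D proteins (FBL, NOP58, SNU13) and 0 of the 3 measured H/ACA proteins (NHP2, NOP10, GAR1) were called between lines, and none had an unadjusted p under 0.05. Their log2 differences lay between -0.22 for FBL and 0.37 for SNU13. NOP56 and DKC1 were not analysed here. Of 15 assembly and trafficking factors, 3 were called, all higher in MUG-Chor1, a share near the 18.9% of all genes called. They were PIH1D1 (2.49) and NUFIP1 (1.67), which load the core proteins onto the RNA, and the C/D assembly factor ZNHIT6 (1.00).

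With TNF, a small set of H/ACA genes was lower on the TNF array of each line. In U-CH1, 3 of 57 H/ACA genes were called, all lower, and 0 of 103 C/D genes, of which 11 had an unadjusted p under 0.05. The background was 0.359% of all genes called lower, 0.913% called higher and 1.27% called in all. In MUG-Chor1, 4 of 57 H/ACA genes and 1 of 103 C/D genes were called, all lower, against 1.41% of all genes lower, 1.47% higher and 2.88% in all. SNORA75, SNORA72 and SNORA14B were called in both lines.

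SNORA75, also known as U23 and carried in an intron of the nucleolin gene NCL, read 9.54, 9.45 and 8.68 in U-CH1 controls and 5.76 with TNF. It read 9.48, 8.86 and 8.56 in MUG-Chor1 controls and 6.51 with TNF. Both TNF values lay below all controls of their line. The log2 difference in U-CH1 was -3.46 (SE 0.42, limma adjusted p = 0.00445) and that in MUG-Chor1 was -2.46 (SE 0.42, limma adjusted p = 0.00979). NCL itself had -0.52 and -0.07 and was not called.

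SNORA72, inside the ribosomal protein gene RPL30, read 8.43, 8.42 and 7.45 in U-CH1 controls and 4.95 with TNF (log2 difference -3.15, SE 0.42, limma adjusted p = 0.00657). In MUG-Chor1 it read 7.91, 7.28 and 7.29 and then 5.56 (-1.93, SE 0.42, limma adjusted p = 0.0357). RPL30 had -0.29 and -0.15 and was not called. SNORA14B, inside TOMM20, read 5.69, 5.72 and 4.86 and then 2.95 in U-CH1 (-2.47, SE 0.40, limma adjusted p = 0.0144). In MUG-Chor1 it read 4.77, 4.10 and 4.17 and then 2.55 (-1.80, SE 0.40, limma adjusted p = 0.0377). Each of these TNF arrays was below all 3 of its controls. Leaving out any 1 array kept both calls of SNORA75 and the U-CH1 call of SNORA72. The MUG-Chor1 calls of SNORA72 and SNORA14B were lost without U-CH1 control 1, U-CH1 control 2 or MUG-Chor1 control 1, with limma adjusted p up to 0.10 for each. The U-CH1 call of SNORA14B was lost without U-CH1 control 1 or 2, with limma adjusted p up to 0.0555. Both MUG-Chor1 calls were also lost without the filter, and a fit without the shrinkage of variances kept none of these 6 calls (limma adjusted p from 0.233 to 0.339).

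SNORA70F had a TNF difference that itself differed between the lines. It read 2.63, 2.79 and 2.67 in U-CH1 controls and 1.63 with TNF, and 4.30, 4.32 and 4.51 in MUG-Chor1 controls and 1.10 with TNF. The log2 difference in U-CH1 was -1.07 (SE 0.26, limma adjusted p = 0.0861) and that in MUG-Chor1 was -3.28 (SE 0.26, limma adjusted p = 0.000145). The difference of these differences was -2.21 (SE 0.36, limma adjusted p = 0.032), the one such call among the members, against 0.53% of all genes, 0.33% lower and 0.2% higher. It was lost without any of the 3 U-CH1 controls or MUG-Chor1 control 1 or 2, with limma adjusted p up to 0.0806. Its host COBLL1 read 6.06, 5.82 and 5.97 in MUG-Chor1 controls and 3.45 with TNF (-2.49, SE 0.26, limma adjusted p = 0.000636), and had -0.41 in U-CH1 (limma adjusted p = 0.66). Both TNF values of SNORA70F were below the median of all values, 2.57, and its U-CH1 controls were only slightly above that median. A fall in U-CH1 thus had less room than in MUG-Chor1. The part of this lower starting level in the line difference was not tested.

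Over both lines together, with 1 TNF effect fitted and line as a term, 7 H/ACA and 2 C/D genes were called, all lower, against 0.93% of all genes called lower, 1.55% higher and 2.48% in all. All 9 were below their own 3 controls on both TNF arrays, against 8.85% of all genes. Because the 9 were picked as called lower on these same arrays, this is a description. Besides the genes above, they were SNORA33, SNORA60, SNORA80E, SNORD17 and SNORD20. SNORA33 read 9.96, 10.22 and 8.24 and then 6.42 in U-CH1, and 9.14, 8.30 and 9.01 and then 6.67 in MUG-Chor1 (log2 difference over both lines -2.60, SE 0.46, limma adjusted p = 0.0171). SNORA60, inside SNHG11, read 8.31, 8.08 and 5.98 and then 4.10 in U-CH1, and 7.44, 6.99 and 6.64 and then 5.11 in MUG-Chor1 (-2.63, SE 0.54, limma adjusted p = 0.0329). U-CH1 control 3 was itself low for both genes. SNORA80E had -2.06 over both lines (SE 0.47, limma adjusted p = 0.0464), and its host KHDC4 had 0.44 and was not called.

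SNORD17, at 237 nucleotides the longest C/D member, read 7.90, 7.60 and 6.11 and then 4.94 in U-CH1, and 5.97, 6.45 and 6.16 and then 4.89 in MUG-Chor1. Its log2 difference over both lines was -1.78 (SE 0.41, limma adjusted p = 0.0487). SNORD20, from NCL like SNORA75, had -0.99 (SE 0.23, limma adjusted p = 0.0487). SNORD17 kept its call when 1 array was left out in 1 of 8 cases, SNORD20 in 1 of 8, SNORA60 in 2 of 8 and SNORA80E in 2 of 8. SNORA33 lost its call without the U-CH1 TNF array (limma adjusted p = 0.131), and SNORA70F without the MUG-Chor1 TNF array (0.0868).

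**Figure D4:**
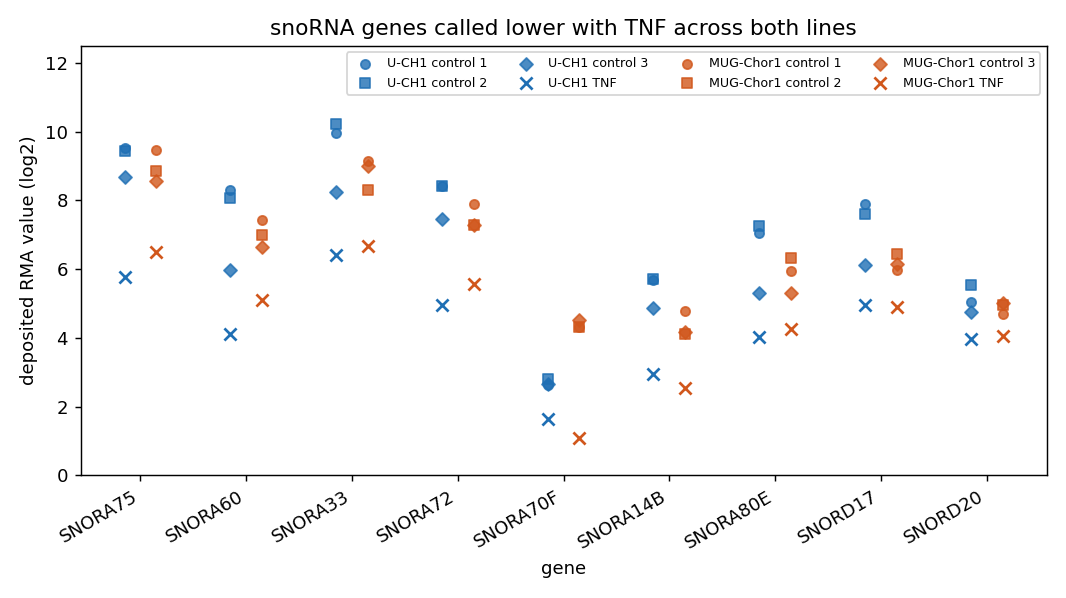
Deposited RMA values (log2, y axis) of the 9 snoRNA genes called lower with TNF across both lines (x axis), 1 point per array, with controls as filled symbols and TNF arrays as crosses. Every cross lies below the 3 controls of its line, and U-CH1 control 3 (blue diamond) lies below the other U-CH1 controls at SNORA60, SNORA33, SNORA80E and SNORD17.

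The other C/D call with TNF was SNORD96B in MUG-Chor1, at 4.38, 3.61 and 3.42 in controls and 2.05 with TNF (log2 difference -1.76, SE 0.39, limma adjusted p = 0.0414). It had -0.74 in U-CH1, and its MUG-Chor1 call was kept in 3 of 7 fits that left 1 array out. SNORD3C, a U3 gene, read 9.07, 8.54 and 8.93 and then 7.60 in U-CH1, and 8.98, 9.55 and 8.75 and then 8.29 in MUG-Chor1. Both TNF values were below the controls, but neither was called (limma adjusted p = 0.156 and 0.374). SNORD13 had -0.03 and 0.02.

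No member was called higher with TNF in any of the 3 TNF fits over all arrays. The largest H/ACA value above the controls in both lines was that of SNORA14A, at 5.45, 4.76 and 3.57 and then 5.85 in U-CH1, and 5.22, 5.42 and 3.93 and then 6.0 in MUG-Chor1. Its log2 differences were 1.26 and 1.15 (limma adjusted p = 0.566 and 0.574). SNORA11B had 0.59 and 0.85. Among C/D genes SNORD4B had 1.05 in U-CH1 and 0.37 in MUG-Chor1. SNORD7, the 1 member that passed the filter through TNF arrays alone, read 2.94 and 2.92 there, with 0.78 and 1.09.

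Set beside each other, the H/ACA class lay lower with TNF than the C/D class in both lines. The median log2 difference of the 57 H/ACA genes was -0.38 (U-CH1) and -0.33 (MUG-Chor1). For the 103 C/D genes it was -0.07 and -0.05, for the 73 outside the chromosome 14 cluster -0.13 and -0.14, and for all genes tested 0.04 and 0.06. In U-CH1, 26 of 57 H/ACA genes and 27 of 103 C/D genes were below all 3 controls, or 45.6% and 26.2%, against 23.4% of all genes. In MUG-Chor1 these were 30 and 31 genes, or 52.6% and 30.1%, against 23.9%. Among the 73 C/D genes outside the chromosome 14 cluster the shares were 32.9% in U-CH1 and 34.2% in MUG-Chor1. Both TNF arrays were below their own controls for 17 H/ACA genes (29.8%) and 11 C/D genes (10.7%), against 8.85% of all genes. All 11 were among the 73 outside the cluster, where they made up 15.1%. Both were above for 3 and 2 genes, against 15% of all genes. These are descriptions, and the difference between classes was not tested.

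**Figure D5:**
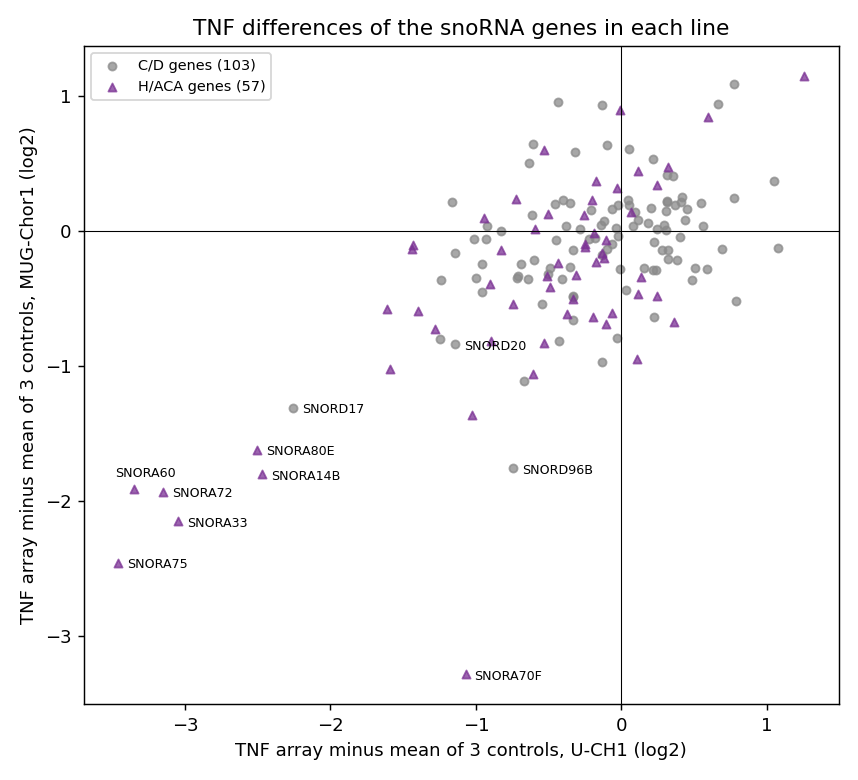
Log2 difference of the TNF array from the mean of its 3 controls in U-CH1 (x axis) and MUG-Chor1 (y axis) for the 160 snoRNA genes, with names for those called. The named H/ACA genes (triangles) lie at the lower left, led by SNORA75 at -3.46 and -2.46, and most C/D genes (circles) lie around 0.

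Some controls shared the direction. U-CH1 control 3 was the lowest of its 3 controls for 35 of 57 H/ACA genes (61.4%) and 27 of 73 C/D genes outside the chromosome 14 cluster (37%), against 28.3% of all genes. MUG-Chor1 control 3 was the lowest for 29 H/ACA genes (50.9%), against 36.9% of all genes. With both of these arrays left out, a choice made after their values were seen, 8 H/ACA genes were called lower in U-CH1, 7 in MUG-Chor1 and 9 across both lines, and 1 C/D gene, SNORD116-21, was then called higher in MUG-Chor1 and across both lines. In that fit the share of all genes called was 2.15% in U-CH1, 4.67% in MUG-Chor1 and 2.33% across both lines, from 1.27%, 2.88% and 2.48%. The median H/ACA difference of U-CH1 control 3 from the other U-CH1 controls was -0.45, beside -0.38 for the U-CH1 TNF array from its controls. For MUG-Chor1 control 3 it was -0.24, beside -0.33 for the MUG-Chor1 TNF array. Other small nuclear RNAs had differences of the same sign. Of 19 SCARNA genes, guide RNAs of the Cajal body, 18 had a negative difference with TNF in U-CH1 (median -0.57) and 16 in MUG-Chor1 (median -0.36), and 0 were called with limma, with 2 and 3 at an unadjusted p under 0.05. Among the controls, U-CH1 control 3 had a median SCARNA difference of -0.86 from the other controls of its line, and MUG-Chor1 control 3 had -0.11. RNU11, a spliceosomal RNA, had TNF differences of -2.44 and -1.68 and was not called. The part of RNA recovery or labelling in these differences was not tested.

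Length was also set beside the TNF difference within each class. Over 56 H/ACA genes of 122 to 204 nucleotides in RefSeq, Pearson r was -0.09 (U-CH1) and -0.00 (MUG-Chor1), and Spearman rho was 0.02 and 0.00. Over 101 C/D genes of 60 to 237 nucleotides, r was -0.25 and -0.23 and rho was 0.00 and -0.13. These are descriptions across genes that share arrays.

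The proteins of the particles did not show a called change with TNF. With limma 0 of 6 core proteins and 0 of 15 assembly factors were called in either line, and 1 core protein had an unadjusted p under 0.05. This was FBL, the C/D methyltransferase, which read 8.17, 7.61 and 8.01 and then 7.03 in U-CH1 (log2 difference -0.90, limma adjusted p = 0.226). Of 20 genes of RNA polymerase I transcription and the nucleolus, 0 were called in either line, with 2 at an unadjusted p under 0.05 in MUG-Chor1. Marker lists moved with TNF in MUG-Chor1. The summed level of 8 chordoma markers went from 54.5 to 57.1 in controls to 40.6, with 5 of 8 called lower, and that of 5 fibroblast markers from 17.0 to 20.2 to 26.7, with 3 called higher. In U-CH1 these sums were 56.2 to 59.9 and then 53.6, and 20.4 to 22.1 and then 20.8, with 0 called with limma, and 2 chordoma and 0 fibroblast markers at an unadjusted p under 0.05. The fibroblast markers called higher in MUG-Chor1 were DCN, LUM and FAP. The group means of DCN and FAP exceeded the median on the MUG-Chor1 TNF array alone, so their calls are a description. The 5 leukocyte markers summed to 15.5 to 16 in U-CH1 controls and 18.2 with TNF, and to 15.5 to 15.9 and then 17.3 in MUG-Chor1, with PTPRC and CD3E at or under the median in every group. Of 3 leukocyte markers tested, ITGAM and CD68 were called higher across both lines, and 0 were called with limma in either line alone, with 3 and 2 at an unadjusted p under 0.05. ITGAM had a mean at or under the median in both control groups and exceeded it only on the TNF arrays. The 3 endothelial markers summed to 9.39 to 10.3 and then 9.32 in U-CH1, and to 11.2 to 12.8 and then 9.66 in MUG-Chor1, where KDR was called lower (log2 difference -2.37, limma adjusted p = 0.0121). The part of these lists in the snoRNA differences was not tested.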

How the data were processed

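Total RNA extracted with Trizol was labelled as single-stranded cDNA with a whole-transcript kit, per the labels' protocols. The authors made the deposited values (53617 probe sets on 8 arrays) with RMA in Transcriptome Analysis Console, as far as the tools listed in the submitters' processing notes show; versions are not stated. No source states a log base: deposited values of 0.0648 to 12.7 were treated as log2, the scale that RMA gives. No build is given for the array. Values were not normalized again.

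Probe sets with 1 symbol (23871) were kept, the brightest by mean was taken per gene, and genes above the median on at least 1 array were tested. A further 119 snoRNA symbols had only probe sets with several symbols. Of 218 snoRNA genes, 214 matched RefSeq by gene ID. limma 3.58.1 in R 4.3.3 fitted 4 group means (4 residual degrees of freedom) and, for TNF across both lines, line plus TNF (5). Code was tested on simulated data. A first limit on the share of known differences recovered there was not met for TNF in U-CH1, and was removed after it failed. A gene not called with TNF may thus still differ. The members and gene lists were chosen with earlier results of these data known. Named genes were the 4 brightest of each class, up to 8 called genes per direction and comparison, then the largest differences outside the controls, and listed genes. Alternatives covered filters, probe sets, normalization, variance models, a replicate block and leaving out arrays.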

Additional observations from a re-analysis of the deposited data

Results flagged for a closer look

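SNORA70F was singled out because its TNF effect differed between the lines by a test of the difference itself: -2.21 on the log2 scale (SE 0.36, limma adjusted p = 0.032), from -1.07 (U-CH1) to -3.28 (MUG-Chor1). The adjusted p ranged from 0.023 to 0.163 over 15 alternatives and stayed under 0.05 in 9 of them. Each TNF effect rests on 1 array. The U-CH1 controls started near the median of all values, which leaves less room for a fall, and the part of this was not tested.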

How the results depend on the processing

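Of 47 calls of named genes, 15 held in every alternative and 0 changed sign. Those 15 include SNORD114 genes that passed the filter through U-CH1 arrays alone and had to differ, so the count is a description. Without shrinkage of variances, 32 of the 47 calls were lost. That fit called 2 H/ACA and 20 C/D genes between lines, 0 H/ACA genes with TNF in U-CH1, 1 H/ACA and 0 C/D in MUG-Chor1, 0 for the difference of TNF effects, and 0 of either class across both lines. Over all 16986 genes it called 6.68% between lines, against 18.9% with shrinkage. With TNF it called 1 gene of all in U-CH1, 15 in MUG-Chor1 and 0 in the other TNF comparisons. Without the filter, TNF calls in MUG-Chor1 were 2 H/ACA and 0 C/D, and 0 C/D genes were called across both lines. Of all genes, 2.08% and 1.52% were called in these comparisons. With trend and robust variances, 5 H/ACA genes were called with TNF in U-CH1, beside 1.5% of all genes. Adding snoRNA symbols of probe sets with several symbols gave 22 calls among 88 H/ACA genes between lines, against 13 among 57, with 18.8% of all genes called. Leaving SNORD113 and SNORD114 out of the C/D class, chosen after seeing the data, gave 15 C/D calls between lines and moved the median from -0.03 to 0.39. Leaving out both controls numbered 3, also chosen after seeing the data, gave 8 H/ACA and 1 C/D calls with TNF in U-CH1 and 7 and 3 in MUG-Chor1. Of all genes, 2.15% and 4.67% were then called. The cause of these shifts was not tested. With 1 array left out, line calls ranged from 8 to 20 (H/ACA) and from 37 to 44 (C/D). TNF calls ranged in U-CH1 from 2 to 7 and from 0 to 1, in MUG-Chor1 from 2 to 6 and from 0 to 2, and across both lines from 4 to 9 and from 0 to 2. Calls for the difference of effects ranged from 0 to 1 (H/ACA). The share of all genes called ranged from 12.6% to 19.1% between lines. With TNF it ranged from 0.631% to 1.95% in U-CH1 and from 1.69% to 3.96% in MUG-Chor1. For the difference of effects it was 0.225% to 0.9%. Across both lines it was 1.18% to 2.63% with a control left out. Whether the replicate numbers pair the controls could not be decided from 3 arrays per line. Deviations of same-numbered arrays correlated at 0.04, -0.06 and 0.16, and those of differently numbered arrays at -0.15 to 0.14. Not every array correlated best with its own number. With the replicate number as a block in the 6 controls, 18 H/ACA and 46 C/D genes were called between lines, beside 19.1% of all genes. Signal over background could not be judged without detection calls.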
